A study of Mus musculus with 24 samples.

Results

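Rapamycin-fed mice were compared with freely fed mice across the transcripts of epididymal white fat, the pad that lies beside the testis and epididymis. The comparison sets against each other 16 of the 24 arrays of the series, taken by the treatment named in their labels. Of these, 8 came from ad libitum animals (AL) and 8 from animals given rapamycin (Rapa). Both groups were male C57BL6/J mice aged 8 months. The Rapa group had received 14 ppm rapamycin for 6 months, starting at 2 months of age, and the AL group had been fed without limit over the same time. The other 8 arrays came from mice of the same strain, sex and age on 40% dietary restriction (DR). Their values are given where a gene is set beside restriction. They also entered the normalization, the probe filter and the shared estimate of spread, so they bear on every limma p-value below. The labels give no genetic change for any group and leave unsaid whether every sample is a separate animal. The p-values below therefore cover only the scatter among these samples, which may be technical.

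Rapamycin binds the small protein FKBP12, and the pair inhibits mTOR complex 1, a kinase complex that links nutrient and insulin signals to protein synthesis, lipid synthesis and autophagy. Long exposure is known to disturb a further mTOR complex as well, which acts on the kinase AKT. In white adipocytes these pathways are known to bear on fatty acid synthesis, fat storage and adipocyte differentiation. The design text sets rapamycin and restriction side by side against ad libitum feeding, and the comparison asks which fat transcripts differed after rapamycin.

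The arrays were Illumina mouse BeadChips with 45281 probes. The number of probes detected (detection p under 0.05) was 16834 ± 1444 in AL and 16309 ± 1852 in Rapa (SD, n = 8 each), a difference of -525.2 probes that was smaller than the spread (exact permutation test, two-sided p = 0.53). The labels name epididymal fat in one field and liver in another. Of 16 adipocyte markers 14 were detected on all 16 arrays, whereas of 20 hepatocyte markers 1, Cyp2e1, was detected on all 16 and 5 on none, albumin (Alb) among them. The median of 16 epididymis and testis markers, on the log2 scale, lay between 4.64 and 5.81 on the AL arrays. It exceeded 6 on 3 Rapa arrays, at 8.84 on Rapa6, 6.35 on Rapa7 and 10.67 on Rapa8, and on 4 DR arrays. Results without these 7 arrays are given beside those they touch. Single markers were also high on arrays below 6, with Prm1 at 11.72 on AL7, Defb42 at 12.49 on AL6 and Wfdc10 at 9.05 on Rapa2. The AL arrays and the fits without the 7 arrays were therefore not free of such transcripts. Array brightness largely followed the numbers in the sample titles. Among AL and Rapa arrays, those numbered 1 and 5 were the dimmest, with 75th percentiles of intensity from 15 to 29.8. Those numbered 2 and 6 ran from 78.5 to 111.7 and were the brightest but for AL3, at 80.7, which exceeded Rapa2. Arrays numbered 3 and 7 (32.6 to 80.7) overlapped those numbered 4 and 8 (42.7 to 66.9). The 4 number classes (1 and 5, 2 and 6, 3 and 7, 4 and 8) each hold 2 arrays of a group and were defined after the intensities were seen, since the labels do not say what the numbers stand for.

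Rapamycin lowered 15 genes and raised 0 at an adjusted p under 0.05, out of 9836 genes tested (0.153%, limma with Benjamini-Hochberg adjustment over all probes kept). At an unadjusted p under 0.05 there were 945 genes (9.61%), 570 lower (5.8%) and 375 higher (3.81%). In the order of their p-values the 15 were Cox8b, Serpina3b, Mogat2, Gpc1, Acta1, C6, Acss2, Cyp2e1, Aldh1a7, Kcne1l, Ugt1a6b, Aldh1l1, P2rx5, Aldh5a1 and Fhit, and 12 of them were lower by at least 2-fold. Each of the 15 was lower in Rapa in all 4 number classes, although the same arrays had given the calls. The tissue was measured in bulk, so fewer cells of a type and less RNA per cell cannot be told apart.

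**Figure D1:**
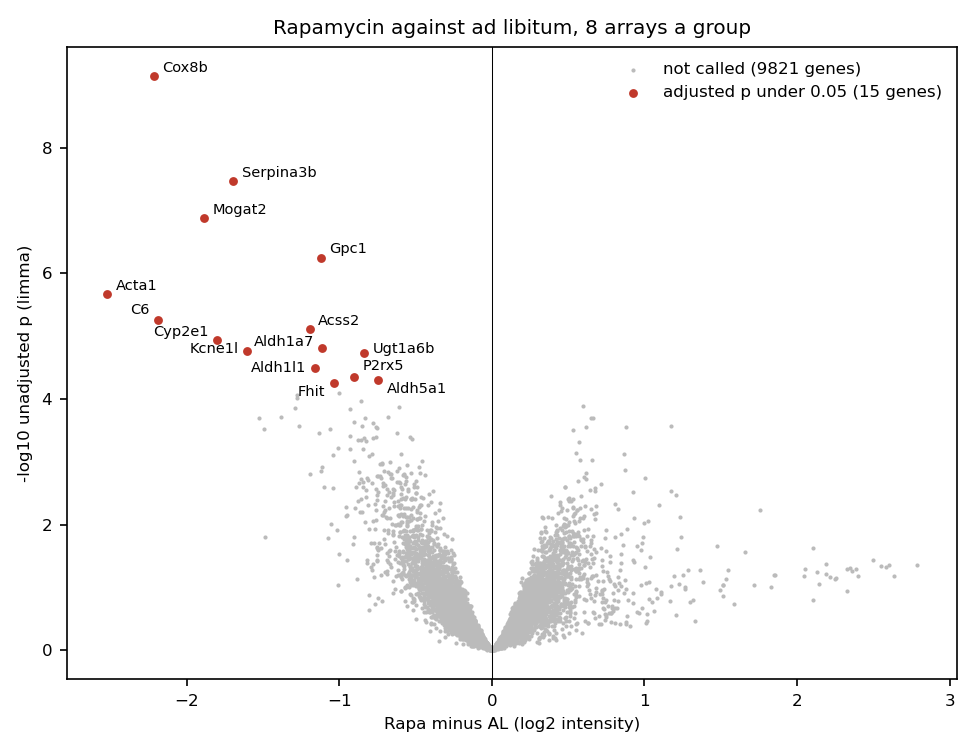
Each point is 1 of 9836 genes, with the difference between the 8 Rapa and the 8 AL arrays on the x axis (log2 intensity) and the -log10 of the unadjusted limma p on the y axis. Red points are the 15 genes past the threshold, which all lie on the left (Rapa lower). The grey points far to the right are genes with large but scattered differences, none of which passed.

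Most genes differed little. The 95% interval of the difference lay inside a 2-fold change in either direction for 8868 genes (90.2%) and inside 1.5-fold for 4905 (49.9%). The 2-fold count moved with the scaling. The median difference over all genes was -0.01 on the log2 scale, and the 5th and 95th percentiles were -0.46 and 0.44. Estimates beyond 2-fold were found for 74 genes on the higher side, of which 0 were called, and for 34 on the lower side, of which 12 were called. Without the 7 arrays above the marker limit, 7 of those 74 higher genes and 31 of those 34 lower genes were still beyond 2-fold.

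The count of calls moved with the treatment of the arrays. A fit that blocked on number class passed 154 genes (1.57%), 110 lower and 44 higher, and they included all 15. Without the 7 arrays 21 genes passed, 20 lower and 1 higher, of which 7 were among the 15. With only the AL and Rapa arrays in the fit 11 passed, all lower, of which 9 were among the 15. Cyp2e1, Ugt1a6b, P2rx5, Aldh1a7, Aldh1l1 and Aldh5a1 lost the call there, with adjusted p-values in limma from 0.056 to 0.114. Omission of 1 array at a time gave between 8 and 36 calls, with 36 without AL1, 23 without AL6, 9 without AL4 and 8 without AL2 or AL7. Scaling each array by its median in place of quantiles left 3 calls, Cox8b, Mogat2 and Serpina3b, and moved the median of all genes to -0.21. The 15 genes stayed lower in Rapa in each of these fits.

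The stretches upstream of 4 of the lowered genes are shown because these genes differ in where they are known to be active and in what they did under restriction. Cox8b had the smallest p, Acss2 moved in opposite directions under the 2 treatments, and the letters TATAAA occur before Cyp2e1 and Acta1 at different distances from the start. The stretches are the 250 bases before the annotated start, from RefSeq on GRCm38.p6, read 5′ to 3′ on the strand of the gene. They lie at chr7:140900447-140900696 (minus strand) for Cox8b, chr2:155517793-155518042 (plus strand) for Acss2, chr7:140763569-140763818 (plus strand) for Cyp2e1 and chr8:123894776-123895025 (minus strand) for Acta1. Capitals mark a match to the antioxidant response element in Acss2 and the letters TATAAA in Cyp2e1 and Acta1.
Cox8b: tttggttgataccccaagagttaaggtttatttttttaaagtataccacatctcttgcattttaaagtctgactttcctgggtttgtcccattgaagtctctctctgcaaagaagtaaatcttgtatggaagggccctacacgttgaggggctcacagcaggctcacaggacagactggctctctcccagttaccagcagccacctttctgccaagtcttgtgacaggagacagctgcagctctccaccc
Acss2: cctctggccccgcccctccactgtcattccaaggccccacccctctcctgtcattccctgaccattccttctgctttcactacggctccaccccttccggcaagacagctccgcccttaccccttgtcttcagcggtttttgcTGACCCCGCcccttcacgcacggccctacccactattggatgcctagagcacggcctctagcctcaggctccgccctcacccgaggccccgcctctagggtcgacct
Cyp2e1: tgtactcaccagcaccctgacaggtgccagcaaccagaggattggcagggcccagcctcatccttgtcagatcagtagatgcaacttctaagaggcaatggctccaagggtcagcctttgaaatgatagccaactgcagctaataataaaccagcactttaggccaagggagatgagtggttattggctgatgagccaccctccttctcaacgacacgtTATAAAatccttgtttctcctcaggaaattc
Acta1: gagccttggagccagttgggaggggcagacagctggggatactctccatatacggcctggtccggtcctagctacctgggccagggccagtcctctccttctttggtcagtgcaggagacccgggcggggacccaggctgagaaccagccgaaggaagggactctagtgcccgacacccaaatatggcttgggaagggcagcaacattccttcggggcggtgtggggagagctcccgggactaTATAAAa

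Such windows were found for 11 of the 15 genes, and Mogat2, Gpc1, Ugt1a6b and P2rx5 are named only. In them 5 motifs were searched on both strands. TATAAA, the letters of the TATA box, was in 4 of the 11 (Serpina3b, Acta1, Cyp2e1 and Aldh1a7), against 8.38% of the 7947 tested genes with a window. The match began 31 bases before the start in Cyp2e1 and 28 in Serpina3b, the region where a TATA box usually lies. In Acta1 it began 7 bases before the annotated start and in Aldh1a7 244, so these are matches of letters away from that place. TGACNNNGC, the antioxidant response element bound by NRF2, was in 1, Acss2, against 13.8%. The sterol regulatory element TCACNCCAC, bound by SREBP factors, was in 0, against 1.21%. The E-box CACGTG was in 0, against 10%, and the direct repeat (DR1) element bound by PPAR and related receptors was in 0, against 0.365%. These shares describe letters in short windows and show neither binding nor its absence.

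Cox8b was the gene with the smallest p in the comparison. It encodes the muscle and brown fat form of a subunit of cytochrome c oxidase, the last enzyme of the respiratory chain, and is widely used as a marker of brown and beige adipocytes. Its log2 intensity had a lowest value of 8.07, a median of 8.98 and a highest of 9.81 in AL, against 6.15, 6.52 and 7.55 in Rapa. Every Rapa array lay below every AL array, and Rapa6, the highest of its group, was still below AL5. Cox8b fell by 2.22 ± 0.24 on the log2 scale (SE, adjusted p = 1.24e-05 in limma), or 4.65-fold. Leaving out the 7 arrays gave -2.24 (adjusted p = 2.42e-04), and Cox8b kept its call in each further setting and each omission of an array other than the separate fits within a number class.

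The other thermogenic genes moved less. Of 13 brown and beige genes on the array 7 were tested, and 3 were detected on all 16 arrays. Cox8b was the 1 called, and 5 of the 7 stood below zero with a median of -0.36. At an unadjusted p under 0.05, 3 were lower (42.9%, against 5.8% of all genes) and 1 higher (14.3%, against 3.81%). Tbx1, the highest of the 7, stood at 0.49. Cox7a1, another muscle-type oxidase subunit, stood at -0.67 and Cidea, a lipid droplet protein of brown fat, at -0.55, and neither passed. The general subunits of the same enzyme stood near zero, with Cox4i1 at -0.10 ± 0.22, Cox6a1 at 0.03 ± 0.17 and Cox5a at -0.22 ± 0.13.

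Acss2 and Mogat2 act on the way to stored fat. Acss2 makes acetyl-CoA from acetate in the cytosol, a starting point of fatty acid synthesis, and is a known target of SREBP factors. It ran from 10.46 through a median of 11.06 to 11.71 in AL and from 9.19 through 9.87 to 10.41 in Rapa, so that the groups did not overlap, although Rapa5 lay just below AL5. Acss2 fell by 1.19 ± 0.22 (adjusted p = 0.0121). It was at -1.12 without the 7 arrays, with an adjusted p of 0.0595 on the fewer arrays left. Another kept probe for Acss2 gave -0.38 (adjusted p = 0.635).

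Mogat2 encodes monoacylglycerol acyltransferase, which joins a fatty acid to a monoacylglycerol on an alternative route to triglyceride. Its values ran from 6.00 through 7.29 to 7.70 in AL and from 4.71 through 5.31 to 5.63 in Rapa. The groups did not overlap, and 3 of the 8 Rapa arrays did not detect it, whereas all 8 AL arrays did. Mogat2 fell by 1.89 ± 0.26 (adjusted p = 7.55e-04), and its further probe stood at -0.93 (adjusted p = 0.103). Near the background a fold is compressed, so the sizes given for dim genes are uncertain.

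Of the 15 lowered genes 3 encode aldehyde dehydrogenases, enzymes that oxidise aldehydes to acids. Aldh1l1, which in fact oxidises formyl-tetrahydrofolate in the folate cycle, ran from 7.91 through 8.74 to 9.22 in AL and from 6.28 through 7.63 to 7.98 in Rapa. A single Rapa array, Rapa4, reached the range of AL, at the level of AL1. Aldh1l1 fell by 1.16 ± 0.23 (adjusted p = 0.0342). Aldh1a7, close in sequence to the retinaldehyde dehydrogenase Aldh1a1, had a median of 9.88 in AL (9.32 to 10.41) and 8.73 in Rapa (8.09 to 9.64). It fell by 1.11 ± 0.21 (adjusted p = 0.0203), and Rapa7 alone lay within the AL range. Its near-identical relative Aldh1a1 lay on the other side of zero at 0.62 ± 0.26, short of the threshold (adjusted p = 0.455), and cross-hybridisation between the pair was not tested.

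Aldh5a1, the mitochondrial succinic semialdehyde dehydrogenase of GABA breakdown, had a median of 9.09 in AL (8.84 to 9.51) and 8.43 in Rapa (7.80 to 8.90). Rapa3 alone lay within the AL range. It fell by 0.75 ± 0.15 (adjusted p = 0.0452). Leaving out those 7 arrays put Aldh5a1 at -0.52 (adjusted p = 0.177) and Aldh1l1 at -0.97 (adjusted p = 0.0595), and Aldh1a7 at -1.30 (adjusted p = 0.0176). A further probe of Aldh5a1 stood at -0.27 (adjusted p = 0.555). Of 15 aldehyde dehydrogenases tested these 3 were called lower and 0 higher, and the median of the 15 was -0.05. At an unadjusted p under 0.05, 4 were lower and 2 higher (5.8% and 3.81% of all genes). The highest was Aldh3a1 at 1.28, which was not called. Aldh3b2, a lipid-associated member, stood at -0.84 and passed once number class was a block (adjusted p = 0.0153).

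Cyp2e1 and Ugt1a6b belong to the handling of foreign and small organic compounds. Cyp2e1, a cytochrome P450 that oxidises ethanol, acetone and many drugs, ran from 13.38 through 13.82 to 14.42 in AL and from 10.60 through 11.58 to 13.82 in Rapa. The Rapa arrays were widely spread. Rapa3 lay inside the AL range, Rapa7 at 13.16 and Rapa2 at 13.08 just below it, and the other 5 at 11.64 or lower. Cyp2e1 fell by 1.8 ± 0.33 (adjusted p = 0.0164), and leaving out the 7 arrays gave -1.66 (adjusted p = 0.0718). Within the number classes the difference was -2.51, -2.16, -0.22 and -2.33, smallest in the class of arrays 3 and 7.

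Ugt1a6b, a glucuronosyltransferase that tags phenols for export, had a median of 9.66 in AL (9.33 to 10) and 8.85 in Rapa (8.36 to 9.39). Rapa4 alone overlapped AL, and the fall was by 0.84 ± 0.16 (adjusted p = 0.0211). Its neighbour and near-identical copy Ugt1a6a stood at -0.78 ± 0.18 (adjusted p = 0.0879), and an array probe may not tell the pair apart. With those 7 arrays left out Ugt1a6b was at -0.81 (adjusted p = 0.0659). In a list of xenobiotic metabolism and transport, which did not hold Ugt1a6b, 16 genes were tested and Cyp2e1 was the 1 called. At an unadjusted p under 0.05, 4 were lower (25%, against 5.8% of all genes) and 2 higher (12.5%, against 3.81%). The highest was Cyp2f2 at 0.93. Once number class was a block 3 of the list were lower, Cyp2e1, Ugt1a6a and the epoxide hydrolase Ephx2.

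Acta1, the actin of skeletal muscle fibres, had the largest estimated fall among the called genes in the fit of all arrays, though not without the 7 arrays, where C6 at -2.55 and Cox8b at -2.24 lay lower. It ran from 8.43 through 9.09 to 10.49 in AL and from 5.34 through 6.87 to 7.88 in Rapa, with no overlap, and Rapa1 did not detect it. Acta1 fell by 2.52 ± 0.42 (adjusted p = 0.00467), and without the 7 arrays the difference was -2.16 (adjusted p = 0.0508). The other 4 skeletal muscle markers tested did not pass. Mylpf, a fast myosin light chain, stood at -0.05, Pvalb, a calcium buffer of fast fibres, at -0.06 and Mb, myoglobin, at 0.23, while Tnnc2, fast troponin C, stood at -0.76. Of 12 skeletal muscle markers on the array 1 was detected on all 16 arrays and 2 on none.

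Among probes that do not stand for their gene, 2 for Actb, cytoplasmic beta-actin, were lower by 1.33 and 1.40 (adjusted p = 0.00424 and 0.00229). The brightest Actb probe, which stands for the gene, was at -0.22 (adjusted p = 0.672). Smooth muscle actin, Acta2, ran from 13.07 through 13.67 to 14.26 in AL and from 12.65 through 13.09 to 13.48 in Rapa, and its difference did not pass.

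C6 and Serpina3b encode secreted defence proteins. C6 is a component of the membrane attack complex of complement. Its values ran from 7.91 through 8.64 to 9.35 in AL and from 4.79 through 6.48 to 8.03 in Rapa. Rapa7 and Rapa2 reached the lower end of AL, while 3 Rapa arrays did not detect the gene. C6 fell by 2.19 ± 0.39 (adjusted p = 0.00964), and its further probe stood at -1.06 (adjusted p = 0.142). Of 12 complement genes C6 was the 1 called, and 4 of the 12 stood below zero. Cd55, which protects cells from complement, stood at -0.90 and passed once number class was a block (adjusted p = 0.0419). C7, the next component of the attack complex, stood at 0.71 ± 0.45.

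Serpina3b belongs to a mouse family of serine protease inhibitors related to human antichymotrypsin, whose members are close in sequence. It ran from 5.87 through 6.63 to 7.00 in AL and from 4.40 through 4.78 to 5.30 in Rapa. All 8 AL arrays detected it and 1 Rapa array, Rapa7, did, and the groups did not overlap. Serpina3b fell by 1.69 ± 0.22 (adjusted p = 2.91e-04) and stood at -1.83 without the 7 arrays (adjusted p = 1.89e-04). Its relative Serpina3n stood at -0.40 and did not pass.

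The remaining genes encode surface proteins and a hydrolase. Gpc1, glypican, a heparan sulfate proteoglycan that binds growth factors, had a median of 11.25 in AL (10.34 to 11.51) and 9.93 in Rapa (9.66 to 10.75). Rapa7 stood apart above the others and was the 1 Rapa array inside the AL range. Gpc1 fell by 1.12 ± 0.17 (adjusted p = 0.00229), and stood at -1.29 without the 7 arrays (adjusted p = 0.00455). Kcne1l, an accessory subunit of potassium channels, had a median of 7.40 in AL (6.99 to 7.97) and 5.89 in Rapa (4.85 to 7.19). It fell by 1.61 ± 0.31 (adjusted p = 0.0209), with Rapa7 again the 1 array in the AL range. Kcne1l was detected on 6 of 8 Rapa arrays.

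P2rx5, an ion channel opened by ATP, had a median of 6.63 in AL (5.82 to 6.91) and 5.66 in Rapa (5.06 to 6.06). It fell by 0.90 ± 0.18 (adjusted p = 0.0446), although 3 Rapa arrays lay at or above the lowest AL array. P2rx5 was detected on 6 of 8 Rapa arrays. Fhit, a hydrolase of diadenosine triphosphate, had a median of 6.13 in AL (5.46 to 6.53) and 4.94 in Rapa (4.53 to 5.66). It fell by 1.04 ± 0.22 (adjusted p = 0.0466) and was detected on 2 Rapa arrays, the 2 that overlapped AL. Both lost the call without the 7 arrays, P2rx5 at -0.84 (adjusted p = 0.118) and Fhit at -1.11 (adjusted p = 0.0595). Fhit, P2rx5 and Aldh5a1 were the called genes nearest to the threshold, and omission of 1 array ended their calls in 15, 13 and 17 of 24 fits.

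**Figure D2:**
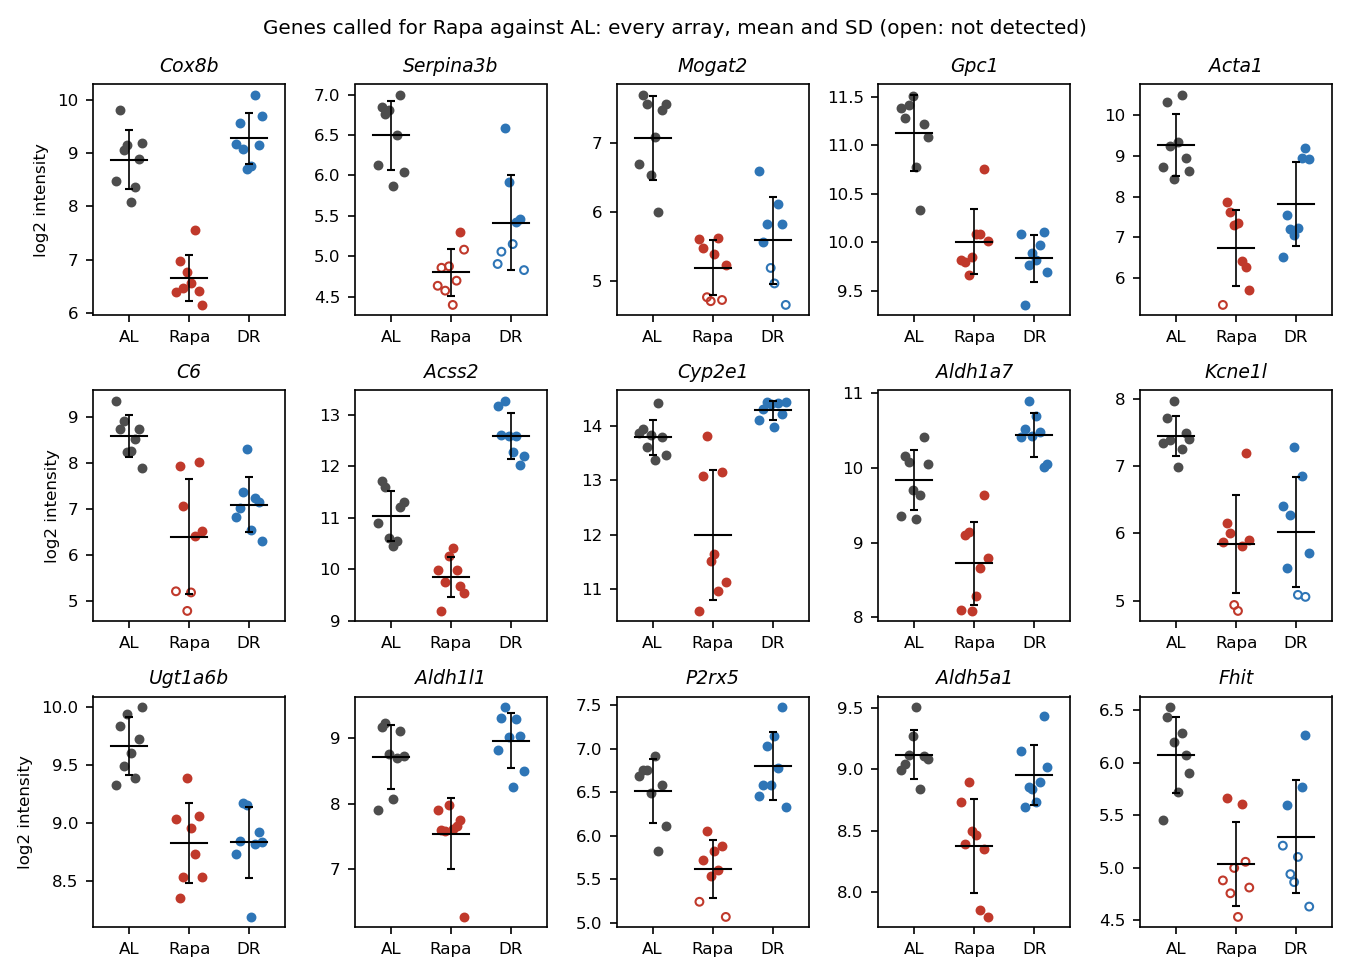
Each panel is 1 of the 15 genes lowered in Rapa, with the log2 intensity of every array by group, the mean (long bar) and the SD (whiskers, n = 8), and open symbols where the array did not detect the gene. In 5 panels (Cox8b, Serpina3b, Mogat2, Acta1 and Acss2) the highest Rapa array lies below the lowest AL array.

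The AL and Rapa arrays did not overlap for 9 genes in all (0.0915%), with Rapa below in 8 (0.0813%) and above in 1 (0.0102%). Of the 15 called genes 5 were among these, Cox8b, Serpina3b, Mogat2, Acta1 and Acss2. The gene with all Rapa arrays above AL was Cxcl1, a chemokine that attracts neutrophils, which ran from 5.77 through 6.48 to 6.86 in AL and from 7.06 through 7.39 to 8.94 in Rapa. Its difference of 1.18 ± 0.28 did not pass (adjusted p = 0.0914), and it passed once number class was a block (adjusted p = 0.0458). Rapa8, an array high in epididymal markers, was the highest.

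Single Rapa arrays differed in how many of the 15 genes lay below every AL array. On Rapa1 and Rapa8 all 15 did, on Rapa5 and Rapa6 14, on Rapa2 and Rapa4 13, on Rapa3 12 and on Rapa7 10. Rapa7 was in or above the AL range for C6, Gpc1, Aldh1a7, Kcne1l and P2rx5. The 15 genes were chosen for low values on these arrays, which favours high counts. Rapa8, with the highest epididymis and testis marker median, and Rapa1, with one of 4.89, both had all 15. A link between the counts and the markers was not tested.

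**Figure D3:**
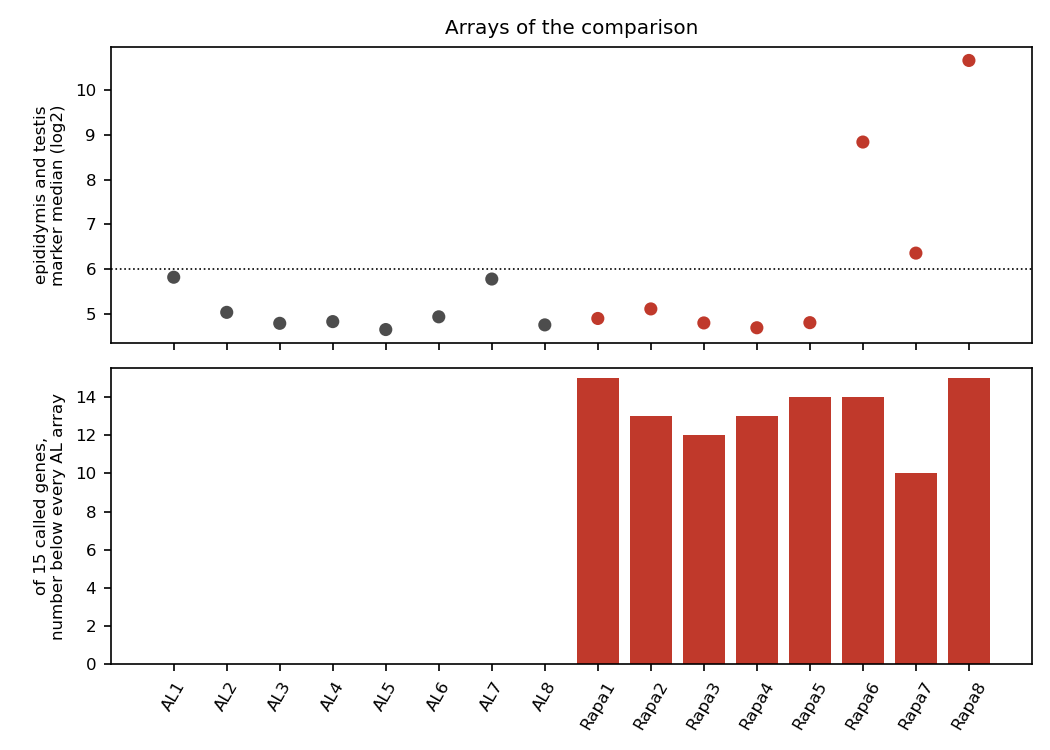
The upper panel plots the median log2 intensity of 16 epididymis and testis markers on each AL and Rapa array, with the limit of 6 dotted. The lower panel counts, for each Rapa array, the genes of the 15 that lay below every AL array, from 10 on Rapa7 to 15 on Rapa1 and Rapa8.

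Restriction gave another picture for the same genes. The comparisons of Rapa and of DR with AL share the AL arrays, so their values are set side by side and only DR against Rapa is tested between them. The 15 genes were also chosen for low values on these Rapa arrays, which favours DR higher than Rapa. They were equally chosen for high values on these AL arrays, which favours DR lower than AL. The counts are therefore a description, and the shares of all genes are not what no difference would give. Of the 15 genes 7 differed between DR and Rapa at an adjusted p under 0.05, and in all 7 DR was higher, where 11.4% of all genes differed and 5.88% were higher in DR. Against AL, restriction lowered 8 of the 15 (6.5% of all genes were lower) and raised 1.

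Acss2 was the gene raised by restriction. It ran from 12.02 through 12.59 to 13.27 in DR, above every AL array, and stood at 1.55 against AL, while rapamycin took it to -1.19. DR and Rapa differed by 2.74 ± 0.22 (adjusted p = 3.99e-09). Cox8b in DR ran from 8.70 through 9.16 to 10.09, overlapping AL, and exceeded Rapa by 2.62 ± 0.24 (adjusted p = 5.39e-08). Cyp2e1 was at 13.99 or higher on all DR arrays and exceeded Rapa by 2.30 ± 0.33 (adjusted p = 3.71e-05).

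Aldh1a7 (adjusted p = 3.61e-06), Aldh1l1 (adjusted p = 1.57e-04), P2rx5 (adjusted p = 8.57e-05) and Aldh5a1 (adjusted p = 0.0146) were likewise higher in DR than in Rapa, by 1.71, 1.41, 1.19 and 0.58 on the log2 scale. All 3 aldehyde dehydrogenases thus belong to the 7. Ugt1a6b was nearly equal under the treatments, at -0.84 in Rapa and -0.83 in DR against AL, with a difference between them of 0.01 ± 0.16 (SE). Gpc1 stood at -1.29 in DR, Kcne1l at -1.43, Mogat2 at -1.49, C6 at -1.49, Acta1 at -1.44, Serpina3b at -1.08 and Fhit at -0.78. For these 8 genes the difference between DR and Rapa did not pass, which does not show that the treatments acted alike.

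**Figure D4:**
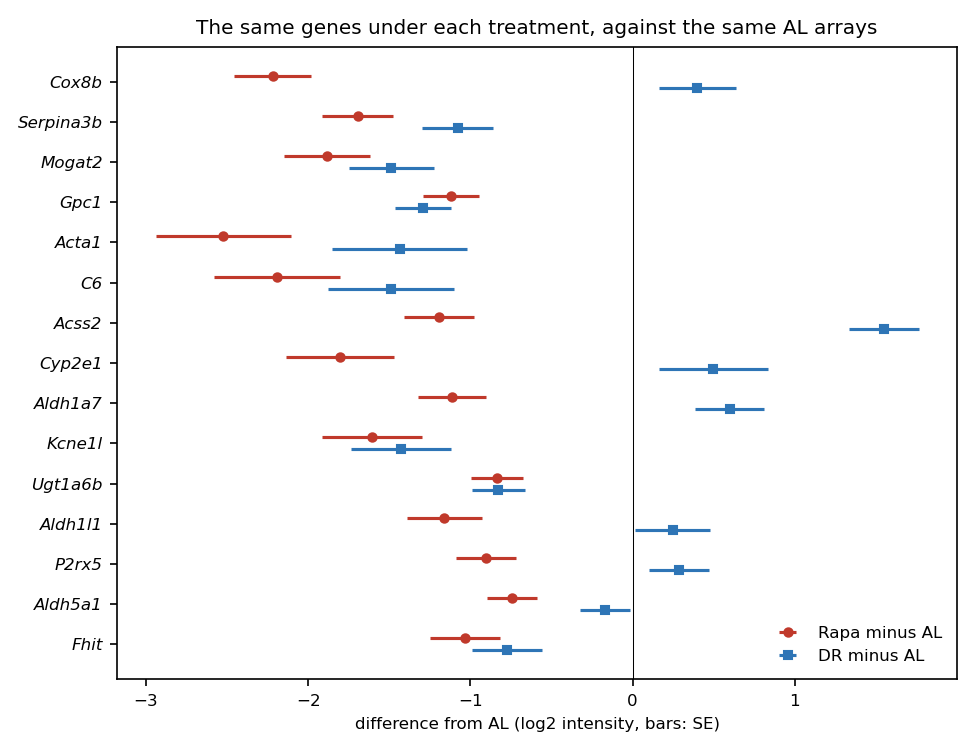
Difference from AL in log2 intensity for the 15 genes lowered in Rapa, for Rapa (red circles) and DR (blue squares), with bars for the SE of the limma fit (8 arrays a group). Acss2 stands at -1.19 in Rapa and 1.55 in DR, and Ugt1a6b at nearly the same value in both.

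The 10 genes with the smallest p among those not called had adjusted p-values from 0.0533 to 0.0787, and 9 of them were lower in Rapa. Gsto1, a glutathione transferase of the omega class, stood at -1.0 ± 0.21 (adjusted p = 0.0533). Igfals, which carries IGF1 in serum complexes, stood at -1.28 ± 0.28, and Pla2g2e, a secreted phospholipase, at -1.29 ± 0.29. The acute-phase proteins Orm1 at -0.86 and Orm2 at -1.38 are near-identical copies that share sequence. Gpd1, which makes glycerol-3-phosphate for triglyceride, stood at -0.93, Oxct1, the enzyme of ketone body use, at -0.68 and Zfp91, a ubiquitin ligase, at -0.61. The 1 on the higher side was Mcm4, a subunit of the replicative helicase, at 0.60 ± 0.13 (8.57 to 9.0 in AL, 8.96 to 9.70 in Rapa). Once number class was a block each of these 10 passed.

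Insig1, the membrane protein that holds back SREBP activation and is itself a SREBP target, completes the 10. It ran from 8.46 through 9.42 to 9.86 in AL and from 7.11 through 8.15 to 8.71 in Rapa. The difference of -1.27 ± 0.28 missed the threshold (adjusted p = 0.0598), while a further probe of Insig1 was lower by 1.8 (adjusted p = 0.00229). In DR Insig1 ran from 8.95 through 9.51 to 10.77, and DR exceeded Rapa by 1.64 (adjusted p = 2.11e-04). Across all probes kept, 22 were lower and 1 was higher, and 8 of these 23 do not stand for a gene in the counts above. Beside those of Actb and Insig1 they were probes of Ankhd1 (-0.86), C130026I21Rik (-1.76), Zbtb7a (-0.97) and Ifitm1 (0.95, the 1 higher) and a probe with no gene name here (-1.02).

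At the level of messenger RNA, no gene of the lists of rapamycin receptors and mTOR complexes passed, where 0.153% of all genes did. Of 10 FK506-binding proteins tested, the family that holds the rapamycin receptors, 0 were called. At an unadjusted p under 0.05, 0 passed, against 9.61% of all genes. The median was -0.06 (a sign that turned without the 7 arrays, at 0.03). Fkbp1a, which encodes FKBP12 itself, ran from 11.10 through 11.37 to 11.70 in AL and from 10.38 through 11.15 to 11.64 in Rapa, a difference of -0.26 ± 0.16 (adjusted p = 0.622). Fkbp5, a glucocorticoid-induced member, was the most scattered, from 6.13 to 8.68 in AL and from 5.68 to 9.79 in Rapa, at 0.83 ± 0.44. Fkbp7 at -0.37 had the lowest value.

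Among 27 genes of the mTOR complexes and their regulators 0 were called in limma, and the median was -0.09, or -0.01 without the 7 arrays. At an unadjusted p under 0.05, 4 were lower (14.8%, against 5.8% of all genes) and 1 higher (3.7%, against 3.81%). The kinase gene Mtor stood at 0.31 ± 0.17, its complex 1 partner Rptor at -0.16 ± 0.19 and its complex 2 partner Rictor at 0.28 ± 0.15 (adjusted p = 0.586, 0.835 and 0.583). The inhibitors Tsc2 at -0.03 ± 0.11 and Deptor at -0.01 ± 0.27 and the activator Rheb at -0.09 ± 0.14 stood near zero. For 24 of the 27 the 95% interval lay inside 2-fold, where 90.2% of all genes had such an interval.

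The widest differences of that list were among sensors and targets of complex 1. Castor1, an arginine sensor, ran from 7.57 through 8.24 to 8.81 in AL and from 6.75 through 7.5 to 8.01 in Rapa. At -0.76 ± 0.19 it did not pass (adjusted p = 0.103) and passed once number class was a block (adjusted p = 0.0409). Eif4ebp1, the translational repressor that complex 1 phosphorylates, stood at -0.83 ± 0.29, Lamtor1, a lysosomal anchor of the complex, at -0.59 ± 0.18, Grb10, an adaptor that complex 1 stabilises, at -0.46 ± 0.18 and Rragb, a GTPase of amino acid sensing detected on 3 AL and 5 Rapa arrays, at 0.75 ± 0.32. None passed. Messenger RNA levels do not report phosphorylation, and kinase activity was not measured.

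Of 35 pathway lists 5 held a called gene, each already described: de novo lipogenesis (Acss2), aldehyde dehydrogenases, xenobiotic metabolism (Cyp2e1), brown and beige genes (Cox8b) and complement (C6). In the other 30 lists 0 genes passed in limma. Lists are described by their counts and medians beside those of all genes, of which 50.9% stood below zero with a median of -0.01.

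Lipid synthesis lists lay below zero for most members. In de novo lipogenesis 14 of 16 genes stood below zero, with a median of -0.18. At an unadjusted p under 0.05, 6 of the 16 were lower (37.5%, against 5.8% of all genes). Beside Acss2 these were Scd2, a desaturase, at -1.07, Thrsp, a lipogenic regulator, at -0.70, Me1, malic enzyme, at -0.59, Slc25a1, the citrate carrier, at -0.55 and Srebf1, the SREBP-1 gene, at -0.52. The core enzymes Acly at -0.01 ± 0.18 and Fasn at -0.21 ± 0.35 stood closer to zero. In cholesterol biosynthesis 14 of 16 stood below zero with a median of -0.29. Mvk, mevalonate kinase, stood at -0.61, Pmvk, the kinase after it, at -0.84, and Lss, lanosterol synthase, at -0.77. Once number class was a block 3 of the 16 were lower (Insig1, Mvk and Pmvk). Without the 7 arrays the median of this list was -0.59 and that of de novo lipogenesis -0.35.

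In triglyceride synthesis and storage 16 of 18 stood below zero, with a median of -0.27 that was -0.07 without the 7 arrays. Agpat2, the acyltransferase that makes phosphatidic acid, ran from 11.25 through 11.71 to 11.94 in AL and from 10.21 through 10.73 to 11.85 in Rapa, at -0.83 ± 0.21 (adjusted p = 0.108), and Rapa7 was inside the AL range. Agpat2 and Gpd1 passed once number class was a block (adjusted p = 0.0153 and 0.0215). Lpl, lipoprotein lipase, stood at -0.07 ± 0.10 and Plin1, the coat protein of fat droplets, at -0.19 ± 0.21. The lipase gene Pnpla2 stood at -0.21 and its inhibitor G0s2 at -0.44.

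Mitochondrial lists had small differences on 1 side of zero. In oxidative phosphorylation 39 of 42 genes stood below zero with a median of -0.20, and 40 of the 42 intervals lay inside 2-fold (90.2% of all genes). Atp5pb, a stator subunit of ATP synthase, stood at -0.51 ± 0.15 and Uqcrc1, a core subunit of complex III, at -0.40 ± 0.13. In the TCA cycle with pyruvate entry 20 of 22 stood below zero, median -0.30, led by Pcx, pyruvate carboxylase, at -0.80 ± 0.21 (adjusted p = 0.15). In fatty acid beta-oxidation 18 of 21 did, median -0.27, with Etfdh, which passes electrons to the chain, at -0.70 and Echs1, the enoyl-CoA hydratase, at -0.66. Leaving out the 7 arrays, these medians were -0.28, -0.27 and -0.18. Blocking on number class brought 2 TCA genes (Pcx, adjusted p = 0.0443, and Idh3b, 0.0467), 2 of beta-oxidation (Etfdh, 0.0283, and Echs1, 0.0458) and 1 of oxidative phosphorylation (Atp5pb, 0.0287) past the threshold, all lower. Genes of a list share regulation and cell source, so such counts are not independent observations. Adipocyte markers lay on the same side, with 15 of 16 below zero and a median of -0.21, or -0.02 without the 7 arrays. Their median level ran from 10.94 to 11.78 on the AL arrays and from 10.43 to 11.70 on the Rapa arrays, so the groups overlapped. Their part in the lists above was not tested.

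**Figure D5:**
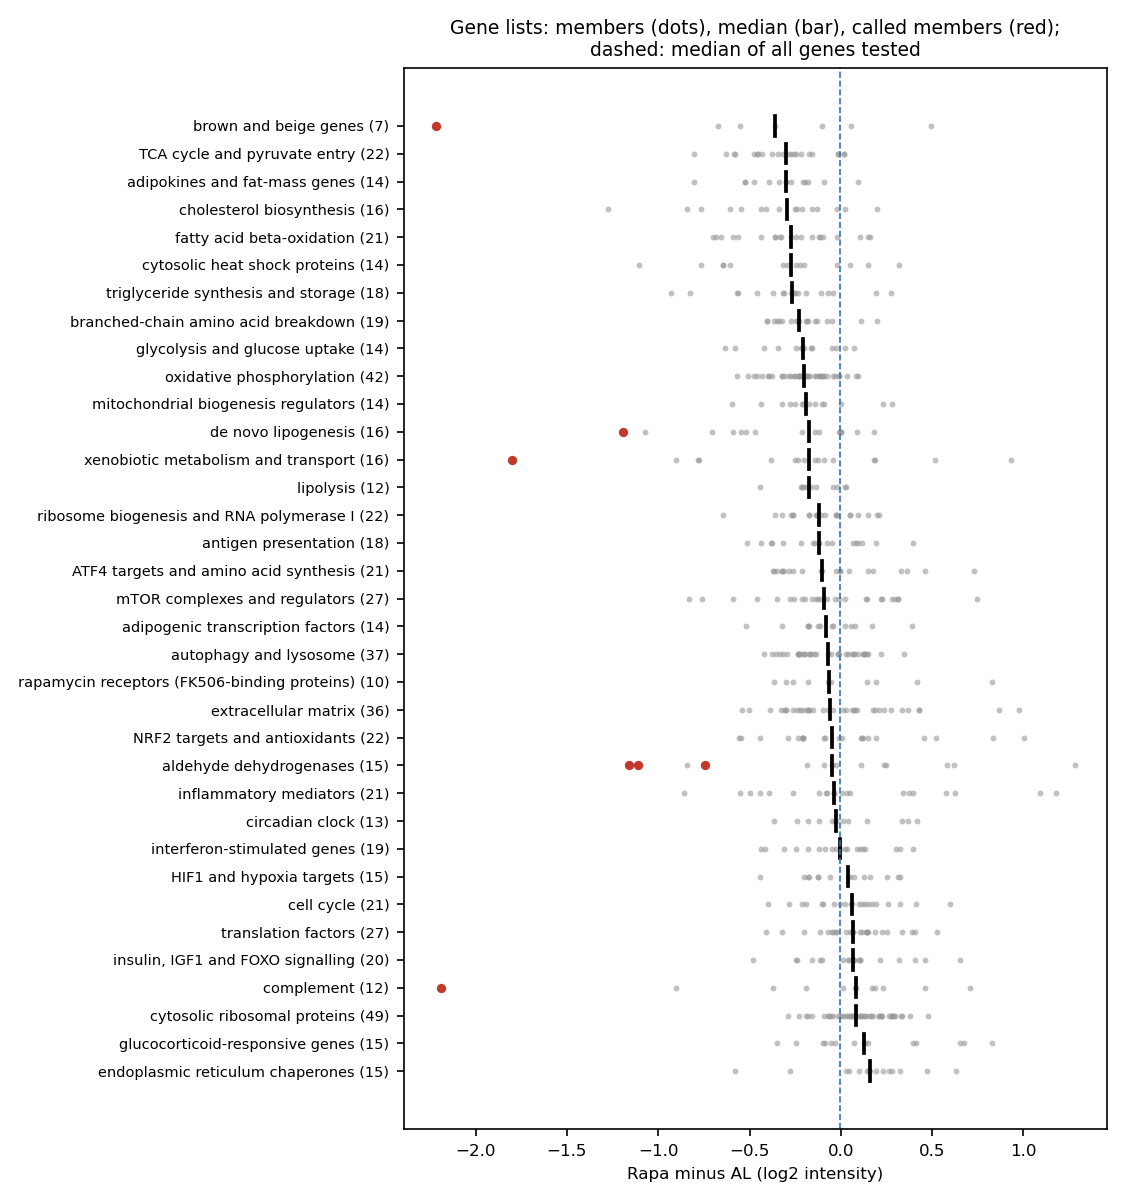
Each row is 1 of 35 pathway lists with the number of its genes tested, each dot a gene at its Rapa minus AL difference (log2 intensity), the bar the list's median, and red the called genes. The dashed line is the median of all 9836 genes, and the bar farthest from it is that of brown and beige genes at -0.36.

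The protein synthesis lists that complex 1 is known to govern stood near zero. Of 49 cytosolic ribosomal protein genes 0 were called and 12 stood below zero, with a median of 0.08, which came to just below zero without the 7 arrays. The intervals of 48 of the 49 lay inside 2-fold (90.2% of all genes). Rpl22 stood at 0.48, Rpl27 at 0.34 and Rps6, whose protein is a readout of the pathway when phosphorylated, at 0.23 ± 0.13. Translation factors had a median of 0.07, with the elongation factor subunit Eef1b2 at 0.53, and genes of ribosome biogenesis and RNA polymerase I one of -0.12, with Bop1 at -0.65. In autophagy and lysosome 0 of 37 were called, with a median of -0.07. Atg7, which drives the conjugation steps of autophagy, stood at -0.38 and the proton pump subunit Atp6v1b2 at -0.36.

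Stress and immune lists held 0 called genes apart from C6. Cytosolic heat shock proteins had 11 of 14 below zero, with Hspb1 at -1.10 ± 0.33 and Hspd1 at -0.60 ± 0.20. Both were past the threshold in the fit that blocked on number class (adjusted p = 0.0137 and 0.0179). Endoplasmic reticulum chaperones had 2 of 15 below zero and a median of 0.16, or 0.09 without the 7 arrays. Sdf2l1 stood at 0.63 and Creld2 at 0.47, and Rapa8 was the highest Rapa array for both. Timp1, an inhibitor of matrix proteases, ran from 6.63 through 7.25 to 7.65 in AL and from 7.11 through 8.19 to 8.60 in Rapa. It stood at 0.87 ± 0.23 (adjusted p = 0.143), passed once number class was a block (adjusted p = 0.0459), and was higher than in DR (adjusted p = 2.43e-06), where it was at 7.14 or below. Core clock genes stood near zero in Rapa, with Arntl at -0.36 and Nr1d1 at 0.37. Antigen presentation (median -0.12), interferon-stimulated genes (close to zero), inflammatory mediators (-0.04) and extracellular matrix (-0.06) showed no common direction, and the medians of inflammatory mediators and extracellular matrix turned sign when the 7 arrays were left out, to 0.06 and 0.09.

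Markers of other cells were read for every array. Of 14 marker lists 2 held a called gene, hepatocyte (Cyp2e1, which white fat also expresses) and skeletal muscle (Acta1). Epididymis markers had a median of 1.74 and testis markers of 0.55, with 0 called, and without the 7 arrays the medians were -0.02 and -0.81. Wfdc10, a protease inhibitor of the epididymis, ran from 4.46 through 5.24 to 7.39 in AL and from 4.59 through 6.29 to 14.48 in Rapa, with Rapa8 and Rapa6 far above the rest. Defb37, an epididymal defensin, was detected on 0 AL and 3 Rapa arrays. It was at 13.57 on Rapa8, 12.72 on Rapa6 and 8.53 on Rapa2, and at 5.52 or lower on the other 5, so its mean rests on few arrays. The difference did not pass (adjusted p = 0.518). Ltf, a neutrophil and epithelial iron-binding protein, likewise reached 13.12 on Rapa8 and 5.41 at most in AL.

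Mesothelial markers had 10 of 12 above zero and a median of 0.41, or 0.27 without the 7 arrays. Upk3b stood at 0.73 and Aldh1a2 at 0.58, and 0 were called. Macrophage markers had a median of 0.08, with Mmp12, the macrophage elastase, at 0.98 ± 0.41 and wide ranges in both groups (6.95 to 9.72 in AL, 8.24 to 11.50 in Rapa). T, B and plasma cell markers had a median of 0.14, endothelial markers of -0.01 and fibroblast and progenitor markers of -0.06. With the 7 arrays left out these medians were 0.26, 0.18 and 0.10, so the last 2 turned sign. Retn, resistin, an adipocyte hormone, was at -0.53, with 8 AL and 4 Rapa arrays detecting it. Whether a change in the mix of cells contributes to the 15 calls was not tested.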

How the data were processed

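RNA from epididymal fat of 24 mouse samples was hybridised to Illumina mouse BeadChips, per the labels' protocols. The deposited intensities were background-subtracted and not normalized between arrays, and each has a deposited detection p-value. The authors also deposited a processed score per probe, which matched a z-score of the log intensity within each array, and it was used as an alternative only. Which scanner software was run is not given in the sources used here.

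Intensities were corrected with normexp through the detection p-values, offset by 16, quantile normalized and taken to log2 (limma 3.58.1, R 4.3.3). A detection p under 0.05 on 8 or more arrays was required, which left 17165 of 45281 probes. The brightest such probe stood for each gene, and 2448 kept probes had no single symbol. Symbols came from the platform annotation given for the array and can be old.

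All 24 arrays entered 1 limma fit with 3 groups, with Benjamini-Hochberg adjustment over the kept probes. Groups followed the labels. The number of arrays limits the precision. The code was tested on simulated data.

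Members and gene lists were chosen with earlier results of these data known. Named were the called genes, the 10 next by p, the FK506-binding and mTOR lists, called or lowest-p members of other lists and cell type markers. Other genes, named for contrast, were chosen after their values were seen. Same-numbered AL and Rapa arrays correlated from -0.141 to 0.585 in their deviations from group means, so the numbers were not taken as pairs.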

Additional observations from a re-analysis of the deposited data

Results flagged for a closer look

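A single array stood far from the other 7 of its group in 2 of the 36 gene and group combinations tested, where chance alone marks about 1 in 20. Gpc1 was at 10.75 on Rapa7, and the next highest Rapa array was at 10.08. Aldh1l1 was at 6.28 on Rapa8, and the next lowest Rapa array was at 7.58. Both arrays were among the 3 Rapa arrays with an epididymis and testis marker median above 6. What sets these arrays apart was not tested.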

How the results depend on the processing

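The 15 calls, all lower in Rapa, depended on the processing, and the cause was not tested. The count was 3 with median scaling, 5 with no further background correction, 25 with an offset of 50 (22 lower, 3 higher), 17 with cyclic loess (15 lower, 2 higher) and 18 on the authors' values (15 lower, 3 higher). It was 8 with no filter on dim probes, 29 with the mean of a gene's probes and 48 with array weights (42 lower, 6 higher). It was 8 with the marker score as a covariate and 11 with only the AL and Rapa arrays in the fit. The number class as a block gave 154 (110 lower, 44 higher), with the marker score added 174, and without the 7 arrays 164. Within single number classes 0, 0, 2 and 0 genes passed, with 445, 741, 894 and 582 at an unadjusted p under 0.05. A fit with the replicate number as a block gave 121 (92 lower, 29 higher), and 4 of 8 AL arrays correlated best with their own number. Omission of 1 array gave 8 to 36 calls. The genes whose 95% interval lies within a 2-fold change, Rapa against AL, numbered 17905 with no filter and 5820 when detection on all 24 arrays was required, since other numbers of genes were tested, and on the same 9836 genes 6617 with median scaling and 6188 with no further background correction. No result changed sign past its threshold. Signal near background limits Serpina3b, Mogat2, Fhit, C6, Kcne1l, P2rx5 and Acta1, each undetected on at least 1 Rapa array.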
